A study of Mus musculus with 24 samples.

Results

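Among the open-chromatin peaks called in the mouse amygdala, 526 were at least 3-fold more accessible in BL6 than in DBA, out of 173864 peaks on chromosomes 1 to 19 that could have met the rule and 271433 peaks in all. Accessibility was taken per library as counts per 1000000 counts (CPM) over all cell types. A peak was eligible with at least 1 count in each strain and a mean BL6 level of 1 CPM or more. It became a member when the lower of the 2 BL6 libraries was at least 3 times the higher of the 2 DBA libraries. That quotient is called the ratio below. The members were thus chosen by the strain difference in accessibility itself, which is described here without a test. The members made up 0.303% of the eligible peaks. The same rule turned round gave 421 peaks higher in DBA, 0.250% of 168729 eligible peaks.

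Nuclei came from amygdala tissue that had been dissected out of adult males of the inbred strains BL6 and DBA, 10 to 16 weeks old. Each strain had 2 libraries for single-nucleus ATAC sequencing and 2 for single-nucleus RNA sequencing, and each library pooled tissue of about 2 animals. The labels name no modified genotype and no treatment. For RNA, sorting with the neuronal antibody NeuN was set to 75% neuronal against 25% NeuN-negative nuclei, whereas for ATAC only the dye 7-AAD was used and NeuN was not. The libraries are named 2 and 3 of each strain after the count tables, because the titles number them 1 and 2. With 2 pools per strain, an SE given here comes from the edgeR fit described below, which estimates spread jointly over all genes or peaks.

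ATAC sequencing marks stretches of DNA that a transposase can reach, which in nuclei are mostly promoters, enhancers and insulator sites. Inbred strains such as BL6 and DBA differ by inherited sequence variants, and each peak here is a place where such strains can be compared in the same tissue. The build mm10 on which the peaks lie is the genome of a BL6 mouse. Whether fragments of DBA DNA aligned equally well to these places was not tested.

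Of the members, 20 overlapped a RefSeq promoter window, defined as 250 bases before to 50 bases after a gene start. The 6 windows printed here belong to the strongest member and to the 5 member promoters whose gene was called higher in BL6 RNA, as described further on. All lie on GRCm38.p6 (mm10) and run 5' to 3' on the strand of their gene. In the first pair, AA388235 at chr17:33981242-33981541 (plus strand) and 4930481A15Rik at chr19:5406565-5406864 (plus strand), both long noncoding RNA genes, the capitals mark the longest stretch that the windows share, read on opposite strands. In the other 4 the capitals mark matches to the motifs searched, and Fggy and Rec8 held none. Fggy lies at chr4:95557257-95557556 (plus strand), Rec8 at chr14:55617916-55618215 (plus strand), H2-Q2 at chr17:35342057-35342356 (plus strand) and the first Mndal window at chr1:173880138-173880437 (minus strand).
AA388235: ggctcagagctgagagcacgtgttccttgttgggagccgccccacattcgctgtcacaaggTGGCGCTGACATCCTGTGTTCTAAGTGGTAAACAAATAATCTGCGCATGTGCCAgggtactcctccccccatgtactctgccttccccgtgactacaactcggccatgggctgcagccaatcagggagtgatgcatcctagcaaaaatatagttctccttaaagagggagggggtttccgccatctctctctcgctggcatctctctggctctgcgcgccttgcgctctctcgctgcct
4930481A15Rik: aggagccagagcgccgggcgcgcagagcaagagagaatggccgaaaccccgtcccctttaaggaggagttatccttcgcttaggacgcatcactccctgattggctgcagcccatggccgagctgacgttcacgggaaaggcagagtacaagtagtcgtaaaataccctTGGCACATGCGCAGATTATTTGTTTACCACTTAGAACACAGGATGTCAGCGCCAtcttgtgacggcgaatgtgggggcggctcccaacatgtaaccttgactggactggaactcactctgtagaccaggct
Fggy: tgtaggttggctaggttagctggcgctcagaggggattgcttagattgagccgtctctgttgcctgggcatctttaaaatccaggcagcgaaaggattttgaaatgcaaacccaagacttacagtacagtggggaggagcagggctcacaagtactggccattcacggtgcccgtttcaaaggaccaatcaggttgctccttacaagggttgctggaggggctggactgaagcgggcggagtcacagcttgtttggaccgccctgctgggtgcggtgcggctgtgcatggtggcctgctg
Rec8: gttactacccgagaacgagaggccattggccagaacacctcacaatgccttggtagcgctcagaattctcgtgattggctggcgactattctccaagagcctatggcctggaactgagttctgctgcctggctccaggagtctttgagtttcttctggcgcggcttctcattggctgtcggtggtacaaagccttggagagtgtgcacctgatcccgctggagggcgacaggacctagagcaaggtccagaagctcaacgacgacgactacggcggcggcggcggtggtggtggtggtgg
H2-Q2: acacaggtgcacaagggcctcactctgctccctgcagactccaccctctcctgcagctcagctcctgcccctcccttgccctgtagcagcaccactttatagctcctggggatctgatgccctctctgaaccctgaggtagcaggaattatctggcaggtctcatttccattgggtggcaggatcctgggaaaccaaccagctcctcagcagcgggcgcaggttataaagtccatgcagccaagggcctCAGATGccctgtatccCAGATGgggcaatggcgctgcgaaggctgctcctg
Mndal: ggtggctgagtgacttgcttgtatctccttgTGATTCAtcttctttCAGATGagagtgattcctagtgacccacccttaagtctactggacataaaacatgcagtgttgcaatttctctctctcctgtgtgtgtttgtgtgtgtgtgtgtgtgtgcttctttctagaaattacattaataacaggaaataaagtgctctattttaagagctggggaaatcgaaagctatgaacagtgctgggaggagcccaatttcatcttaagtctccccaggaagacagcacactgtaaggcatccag

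The windows of AA388235 and 4930481A15Rik aligned in opposite orientation over 269 columns, of which 226, or 84.0%, were identical. The longest identical stretch was 54 bases. In the next best of the 295 pairs of member windows from different peaks, Mndal and Gm5111, that stretch was 20 bases. A 25-base piece of the 54-base stretch was found in the promoter windows of 14 genes among all 32851 windows. Apart from AA388235 and 4930481A15Rik, which defined the stretch, only Eps8l1 had an eligible peak over the window. It was not a member. Eps8l1, which encodes a relative of the signalling adaptor EPS8, had a peak at 2.88 and 2.80 CPM in BL6, against 1.16 and 1.14 CPM in DBA, a ratio of 2.42. No repeat annotation was used here, so the stretch was not assigned to a repeat family. The motifs were searched on both strands, and overlaps between motifs were allowed. The E-box CAGATG was present in 8 of the 25 member windows (32%) and in 17.2% of all windows, and the AP-1 motif TGANTCA in 4 (16%) and 7.81%. The CRE motif TGACGTCA was in 0 member windows and in 1.79% of all windows. The degenerate consensus motifs of CTCF, MEF2, NRF1 and RFX were also in 0 member windows, and in 0.557%, 0.557%, 1.27% and 0.0487% of all windows. At such shares 25 windows would seldom hold a match, so nothing is read from these zeros. Sites that differed from a motif pattern by a base were not counted. The member windows came from 21 genes under 20 peaks, and their median GC content was 55% against 52.7% for all windows.

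Most members were weak to moderate peaks with a residual level in DBA. Their mean level had a median of 2.23 CPM in BL6 and 0.443 CPM in DBA. The BL6 means ran between 1.01 and 28.7 CPM. The ratio had a median of 4.05 with quartiles of 3.36 and 5.40. It lay between 3 and 4 for 256 members, between 4 and 5 for 108, between 5 and 10 for 123, and at 10 or more for 39. The BL6 libraries differed by less than 1.5-fold for 523 of the 526. A DBA library was at 0 for 36 members, 20 in library 2 and 16 in library 3. The smallest total above 0 of any peak in any library was 6 counts, so a 0 in these tables may stand for a low value that the authors' processing removed. No sequence-depth floor was therefore computed for those 36.

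**Figure D1:**
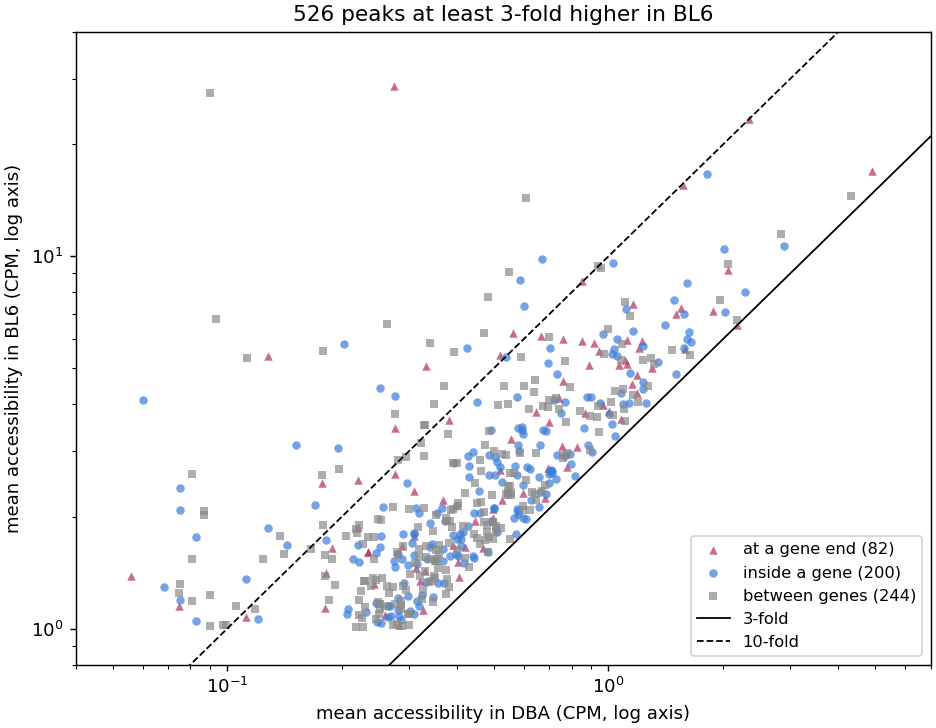
Mean accessibility of the 526 members in BL6 (vertical axis) against DBA (horizontal axis), in CPM on log axes, with lines at 3-fold and 10-fold between the means. Triangles mark members at a gene end, circles those inside a gene and squares those between genes, and the 39 members with a ratio of 10 or more include peaks of all 3 kinds.

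The strongest member was the peak at chr17:33980722-33981744, which covers the AA388235 promoter printed above. It had 27.9 and 29.6 CPM in BL6 libraries 2 and 3, against 0.323 and 0.225 CPM in DBA libraries 2 and 3, a ratio of 86.4. The second was a peak at chr6:3200915-3201604 with no gene within 2 kb. It had 25.9 and 28.9 CPM in BL6, against 0 and 0.180 CPM in DBA, and its ratio of 143.8 was the largest of all members. Both peaks were thus among the clearly open peaks in BL6 and close to the lowest levels in the table in DBA.

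A peak at chr4:95556818-95558818 over the promoter of Fggy, which encodes a carbohydrate kinase of the FGGY family, had 23.4 and 23.5 CPM in BL6, against 2.24 and 2.45 CPM in DBA (ratio 9.54). A peak at chr13:119631433-119632110 inside Ccl28, a chemokine gene of mucosal epithelia, had 16.5 and 16.8 CPM in BL6, against 1.96 and 1.65 CPM in DBA (ratio 8.41). The peak at chr19:5405935-5407641, over the 4930481A15Rik promoter, had 16.4 and 14.7 CPM in BL6, against 1.57 and 1.56 CPM in DBA (ratio 9.41). These 3 peaks stood near 10-fold apart with nearly the same level in both libraries of a strain.

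Of the remaining peaks among the 8 strongest, 2 lay close to the ratio of 3. A peak at an end of 4932438H23Rik, chr16:91055792-91056959, had 16.4 and 17.6 CPM in BL6, against 4.998 and 4.85 CPM in DBA (ratio 3.27). A peak between genes at chr17:79230631-79231872 had 14.5 and 14.5 CPM in BL6, against 4.80 and 3.83 CPM in DBA (ratio 3.02). Both kept a level in DBA above the BL6 median of all members. The last of the 8, between genes at chr17:86150613-86151318, had 14.0 and 14.7 CPM in BL6, against 0.572 and 0.646 CPM in DBA (ratio 21.7).

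**Figure D2:**
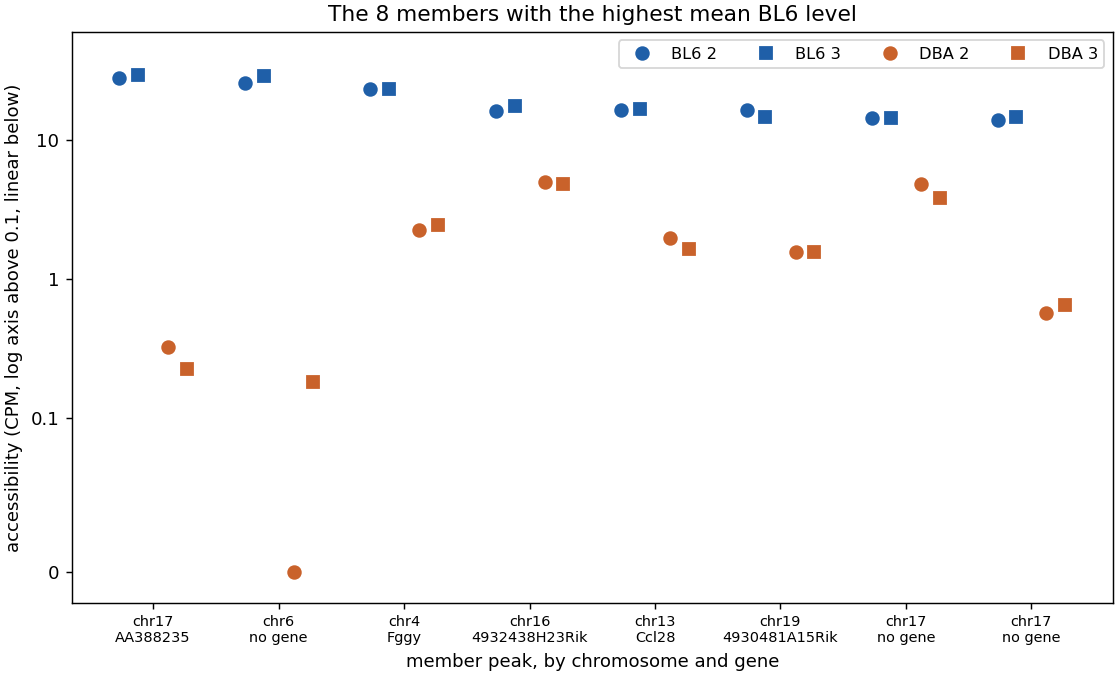
Accessibility in each library of the 8 members with the highest mean BL6 level, with BL6 libraries in blue to the left of DBA libraries in orange (CPM, log axis above 0.1 CPM and linear below). The BL6 libraries lie between 14.0 and 29.6 CPM, whereas the DBA libraries spread between 0 and 4.998 CPM.

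The largest ratios outside these 8 were found at peaks of moderate level. A peak at chr7:60732995-60733977, between genes, had 6.87 and 6.67 CPM in BL6, against 0.187 and 0 CPM in DBA (ratio 35.8). A peak at chr5:92561781-92562621 inside Fam47e had 4.42 and 3.83 CPM in BL6, against 0 and 0.120 CPM in DBA (ratio 31.9). A peak at chr16:90349492-90350309, between genes, had 5.44 and 5.71 CPM in BL6, against 0.162 and 0.195 CPM in DBA (ratio 27.8). In these 3 peaks every DBA library was below 0.2 CPM. A peak at chr1:17310932-17311821, between genes, had 5.23 and 5.42 CPM in BL6, against 0 and 0.225 CPM in DBA (ratio 23.2). A peak at chr1:162359078-162359589 inside Dnm3, which encodes a dynamin of membrane fission, had 6.13 and 5.52 CPM in BL6, against 0.149 and 0.256 CPM in DBA (ratio 21.6).

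The 5 members just inside the rule had ratios of 3.0004 to 3.007. They included chr19:59739328-59740235, with 3.67 and 2.25 CPM in BL6 against 0.423 and 0.751 CPM in DBA. The 5 eligible peaks just outside had ratios of 2.988 to 2.999. Among them were chr12:25213121-25213434 in Gm36287, with 1.13 and 1.08 CPM in BL6 against 0.361 and 0.240 CPM in DBA, and chr13:53338848-53339604 in Sptlc1, a subunit gene of serine palmitoyltransferase, with 5.04 and 5.94 CPM in BL6 against 1.28 and 1.68 CPM in DBA. Peaks on either side of the line thus had similar levels.

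Members lay away from genes more often than other eligible peaks. Between genes, that is, neither inside a RefSeq gene nor within 2 kb of an end, were 244 members (46.4%), compared with 30.5% of the 173338 eligible non-members. Inside a gene were 200 members (38.0%), compared with 50.7% of non-members. Within 2 kb of a gene end were 82 members (15.6%), compared with 18.8% of non-members. The share over a promoter window was 3.80% among members and 7.40% among non-members. The 421 peaks higher in DBA had much the same distribution, with 50.6% between genes, 32.3% inside genes and 17.1% at ends. Members were narrower, with a median width of 552 bases against 638 bases for non-members. These shares describe the members, and no test of them was made, because peaks of one stretch of chromosome are not independent.

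The members were spread unevenly over the chromosomes. Chromosome 17 had the highest rate, 38 members or 5.81 per 1000 eligible peaks, followed by chromosome 1 with 61 members (4.54 per 1000) and chromosome 14 with 34 (4.44 per 1000). Chromosomes 15, 18 and 16 had the lowest rates, with 8, 7 and 9 members (1.06, 1.09 and 1.37 per 1000). Long stretches held none. The longest, between 28737558 and 85679004 on chromosome 10, spanned 56.9 Mb and 3930 eligible peaks without a member, and it held 1 peak higher in DBA. A stretch of 46.0 Mb on chromosome 12 held 3221 eligible peaks without a member and 3 higher in DBA.

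**Figure D3:**
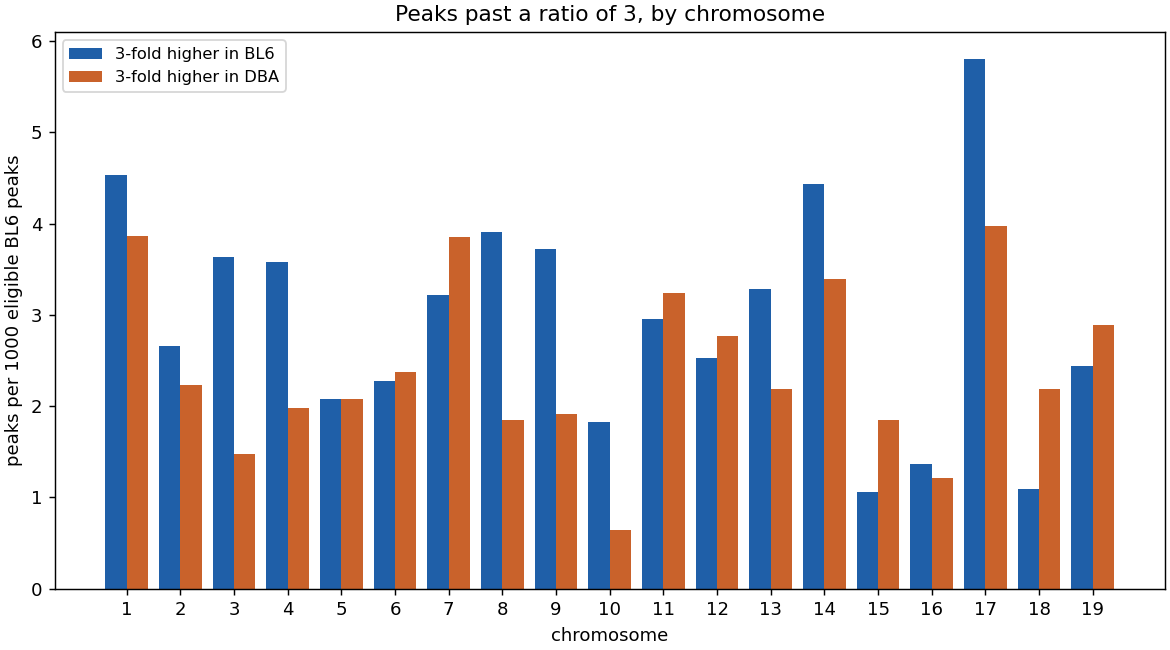
Members per 1000 eligible peaks on each autosome (blue), beside the peaks at least 3-fold higher in DBA over the same number of eligible peaks (orange). Chromosome 17 reaches 5.81 members per 1000, whereas chromosomes 15, 16 and 18 stay below 1.4.

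Windows of 5 Mb with more members also had a wider spread of strain differences among their other peaks. There were 477 windows with at least 100 eligible peaks, of which 233 held no member. The other peaks were the eligible peaks that passed the ratio of 3 in neither strain and had counts above 0 in all 4 libraries. In the windows with no member, the SD of their log2 fold change of BL6 over DBA had a median of 0.24. The median SD was 0.26 in the 125 windows with 1 member, 0.29 in the 56 with 2, 0.33 in the 38 with 3 to 4, and 0.33 in the 25 with 5 or more. The same SD between the 2 BL6 libraries stayed at 0.20 to 0.21 in all 5 kinds of window. Peaks higher in DBA were present at 1.55 per 1000 eligible peaks in windows with no member. They were at 6.09 and 4.61 per 1000 in windows with 3 to 4 and with 5 or more members. A single window, from 170000001 to 175000000 on chromosome 1, held 23 of the 90 such peaks in windows with 3 to 4 members. Over the windows, the rate of members and the SD of the other peaks had a Spearman's rho of 0.55. It is given as a description, since windows of 1 chromosome share the same 4 libraries.

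**Figure D4:**
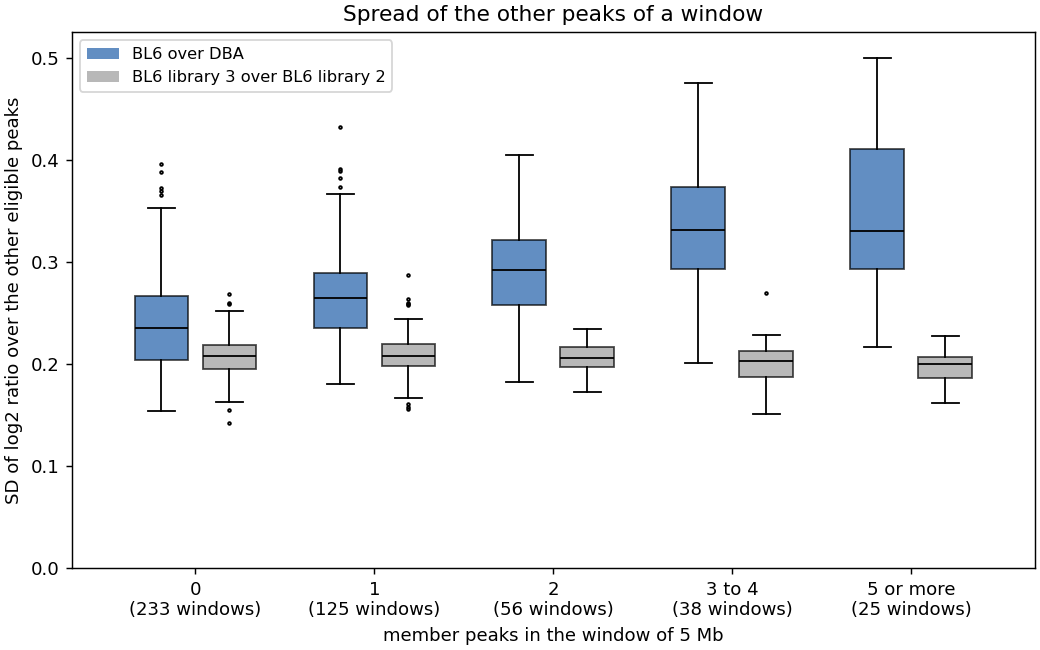
Spread (SD) of the log2 ratio over the other eligible peaks of each 5 Mb window, by the number of members in the window. It is shown for BL6 over DBA (blue) and for BL6 library 3 over BL6 library 2 (grey). The other peaks passed the ratio of 3 in neither strain and had counts above 0 in all 4 libraries. Boxes show quartiles, whiskers 1.5 times the box height and points the windows beyond. The blue medians run between 0.24 and 0.33, while the grey medians stay at 0.20 to 0.21.

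Most members stood alone. When members closer than 50 kb were joined, 447 stayed single, 32 pairs formed, and there were 1 run of 3 and 3 runs of 4. One run of 4 lay on chromosome 13 between 119596295 and 119632110, with 3 members inside Tmem267 and the Ccl28 peak described above. One lay on chromosome 17 between 33980722 and 34020983, with 2 members at AA388235, 1 at Gm31082 and 1 at an end of Ring1, which encodes a Polycomb ubiquitin ligase. The third lay between 36082736 and 36122802 on chromosome 17, in the region of the major histocompatibility complex near H2-T-ps. Its outer peaks had 8.90 and 9.23 CPM in BL6 against 0.510 and 0.586 CPM in DBA (ratio 15.2), and 8.87 and 9.71 CPM in BL6 against 0.982 and 0.932 CPM in DBA (ratio 9.04). The run of 3 lay inside Ppm1l, a protein phosphatase gene, at chr3:69527428-69539471. The runs held 10, 6, 5 and 5 eligible peaks.

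For each member the nearest eligible peak within 10 kb that was not itself a member was taken, so that peaks past the ratio in BL6 were left out by construction. Over 375 distinct neighbours of 387 members the median log2 fold change of BL6 over DBA was 0.17, compared with 0.04 over all non-members. Of the neighbours, 26 (6.93%) were more than 2-fold higher in BL6 and 5 (1.33%) more than 2-fold higher in DBA, compared with 0.914% and 0.303% of all non-members.

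The ATAC sums that chose the members were nearly all neuronal, so the strain difference within neuronal classes is given as a description. Within the summed excitatory neurons 460 of 510 members that were eligible there passed the ratio of 3, compared with 0.393% of all peaks eligible in that class. Within inhibitory neurons 282 of 399 passed (0.245% of all), and within non-neuronal nuclei 47 of 236 (0.670% of all). The rule used these same counts, so nothing is read from the shares. The median log2 fold change of BL6 over DBA among the eligible members was 2.49 in excitatory neurons, 2.27 in inhibitory neurons and 1.81 in non-neuronal nuclei. In 312 of the 383 members eligible in both neuronal classes, the fold changes of the 2 classes lay within 2-fold of each other, and in 10 they lay more than 4-fold apart. Non-neuronal nuclei supplied 1.69% to 2.41% of the ATAC counts, so their values rest on few counts. In 8 neuronal types with at least 1000000 counts per library, the median levels over all 526 members ran between 1.28 and 2.81 CPM in BL6 and between 0.256 and 0.441 CPM in DBA.

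The classes of neurons were compared within libraries, in counts that the rule had also used. In a test of the class sums within each library (edgeR quasi-likelihood test with the library as a block, Benjamini-Hochberg adjustment over all peaks), 196 of 526 members (37.3%) were more open in excitatory than inhibitory neurons, compared with 30.0% of all peaks tested. In the opposite direction 87 members (16.5%) were called, compared with 28.1% of all peaks. Among eligible peaks alone the shares were 34.1% and 32.0%. More open in non-neuronal nuclei than neurons were 18 members (3.42%, compared with 8.63% of all peaks), and less open were 50 (9.51%, compared with 13.0%). Excitatory neurons supplied 63.0% and 55.9% of the ATAC counts in BL6 and 52.4% and 54.9% in DBA. The part of that difference in the class pattern of the members was not tested. The members were chosen to be high in the BL6 libraries, and the counts moved with these: the excitatory count was 126 without BL6 library 3, the inhibitory count 50 without BL6 library 2, and the non-neuronal counts 9 (higher, without BL6 library 3) and 7 (lower, without BL6 library 2). Without the library block 33 members were called for excitatory and 1 for inhibitory neurons, and among the 162 members at 5-fold the calls were 36 and 31.

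The clearest excitatory members with a mean BL6 level of at least 2 CPM lay between genes. The peak at chr14:52368483-52369243 had 4.27 and 4.16 CPM in BL6 excitatory neurons, with 0.166 and 0.274 CPM in DBA excitatory neurons. In inhibitory neurons it had 0.430 and 0.302 CPM in BL6 and 0.109 and 0.247 CPM in DBA. Its log2 fold change of excitatory over inhibitory was 2.83 (SE 0.28, edgeR adjusted p = 2.55e-22). In non-neuronal nuclei the peak had 1 and 5 counts in BL6 and 0 and 0 in DBA. The peaks at chr13:84935418-84935996 and chr9:92411910-92412396 followed, with log2 fold changes of 2.73 (SE 0.26) and 2.61 (SE 0.27).

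The clearest inhibitory members changed less between classes. The peak at chr8:114115649-114116445 had 3.36 and 3.21 CPM in BL6 inhibitory neurons and 0.407 and 0.529 CPM in DBA inhibitory neurons, compared with 1.18 and 1.15 CPM in BL6 excitatory neurons and 0.214 and 0.328 CPM in DBA excitatory neurons. The log2 fold change of excitatory over inhibitory was -1.43 (SE 0.23, edgeR adjusted p = 1.33e-09). Similar values were found for chr8:82194903-82195639 inside Gm38590 (-1.38, SE 0.20) and chr19:17982627-17983024 (-1.29, SE 0.20). In these peaks both classes were higher in BL6.

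Among members more open in non-neuronal nuclei was a peak at chr14:67769519-67770350 inside Dock5, which encodes an exchange factor for the GTPase Rac. It had 9 and 32 non-neuronal counts in BL6 and 4 and 12 in DBA. Its log2 fold change of non-neuronal nuclei over neurons was 1.56 (SE 0.26). In BL6 the Dock5 peak had 7.36 and 17.3 CPM in non-neuronal nuclei. It had 6.49 and 6.72 CPM in BL6 inhibitory and 4.29 and 4.76 CPM in BL6 excitatory neurons. The rule required low DBA totals, which were nearly all neuronal. It thus favoured this direction in the DBA libraries, and no p-value is given for these peaks. A peak at chr5:72817452-72818183 inside the kinase gene Tec had 10 and 9 non-neuronal counts in BL6 and 5 and 8 in DBA (1.78, SE 0.36). With the BL6 libraries alone the Tec peak no longer passed. Another, at chr8:88494927-88495801, had a value of 1.72 (SE 0.30). At the other end, a peak at chr1:162637120-162637788 at an end of Myoc, the myocilin gene, had 0 non-neuronal counts in all 4 libraries, and no fold change is given. Its neuronal level was 3.20 and 3.03 CPM in BL6 excitatory neurons and 0.427 and 0.492 CPM in DBA excitatory neurons. Peaks at chr1:154143963-154144497 and chr14:46571796-46572311 in Rubie had 1 and 2 non-neuronal counts over the 4 libraries.

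RNA gave a measure that the rule had not used. Of 86 genes with a member within 2 kb of an end, 54 had a row in the RNA table and 39 could be tested over all nuclei (edgeR quasi-likelihood test over all genes, Benjamini-Hochberg adjustment). Testing required 10 or more counts in each strain, so genes counted in a single strain were left out. Of the 15 genes with a row but no test, 5 had counts in BL6 alone and 2 in DBA alone. Higher in BL6 were 8 of the 39 (20.5%), compared with 3.18% of all genes tested. Lower in BL6 were 0, compared with 1.71% of all genes. At an unadjusted p under 0.05, 15 were higher and 4 lower, and DESeq2 also called 0 lower. The median log2 fold change of BL6 over DBA was 0.57 over the 39 genes and 0.01 over all genes. In 20 genes both BL6 libraries lay above both DBA libraries, in 5 both lay below, and in 14 they overlapped. Shares over all genes were not computed for these counts or for those at an unadjusted p, so nothing is read from either. In sums over nuclei, fewer cells of a type and less RNA per cell cannot be told apart. Neurons made up 63.4% and 47.0% of the RNA nuclei in BL6 and 54.1% and 69.9% in DBA, and non-neuronal nuclei supplied 17.1% and 30.1% of the RNA counts in BL6 and 22.9% and 14.4% in DBA. The part of this composition in the RNA values over all nuclei was not tested. The gene models behind the RNA tables may differ between the strains, which was not tested.

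**Figure D5:**
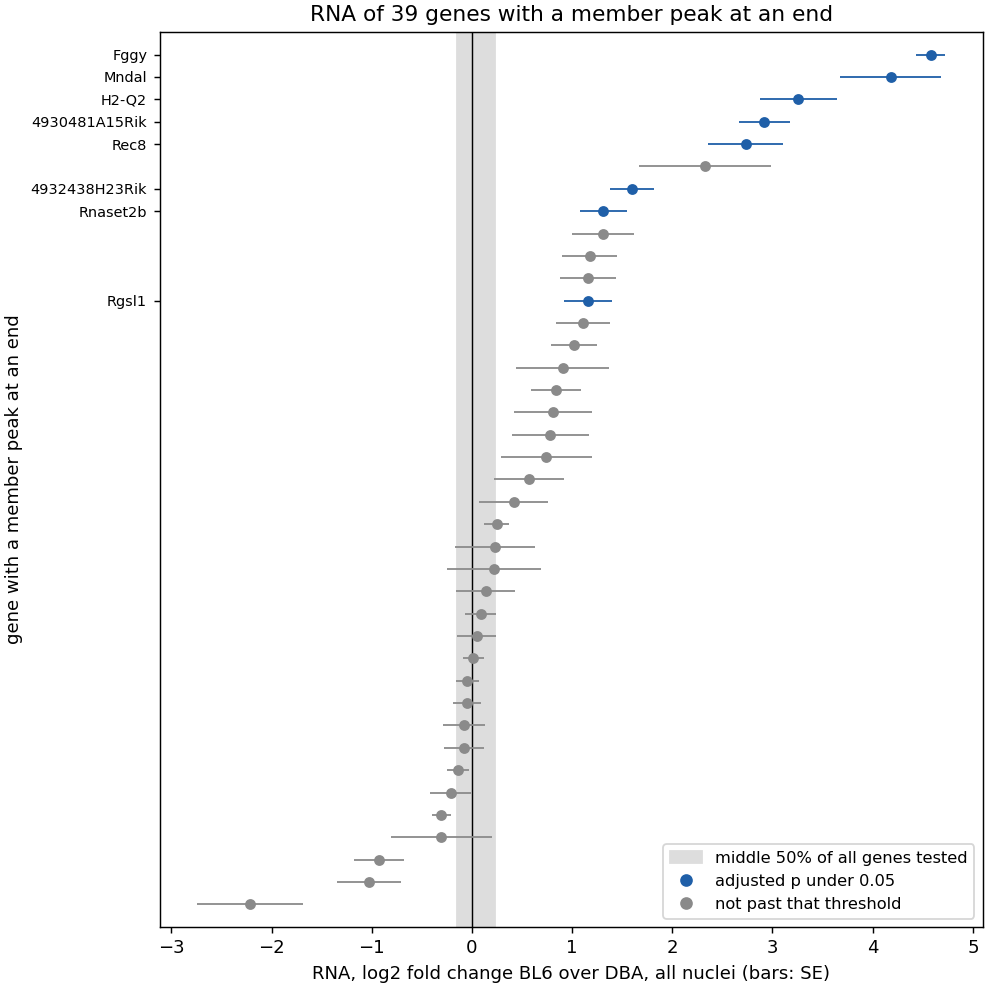
RNA log2 fold change of BL6 over DBA over all nuclei for the 39 tested genes with a member at an end, with SE bars; blue points had an adjusted p under 0.05 and the grey band holds the middle 50% of all genes. Names are given for the genes called. The 8 blue points all lie to the right of 0, between 1.16 and 4.58.

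The largest of these changes was in Fggy, whose promoter is printed above. Its RNA was at 57.7 and 51.7 CPM in BL6 libraries 2 and 3, against 2.24 and 2.19 CPM in DBA libraries 2 and 3. The log2 fold change was 4.58 (SE 0.15, edgeR adjusted p = 1.95e-05). The groups were far apart, and Fggy was also called in excitatory neurons (4.43), inhibitory neurons (4.17) and non-neuronal nuclei (5.42). The peak at its promoter differed about 10-fold.

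Genes of immunity and meiosis were among the others. Mndal, an interferon-inducible gene of the IFI200 family, had 2.04 and 3.71 CPM in BL6, against 0.218 and 0.0987 CPM in DBA (log2 fold change 4.18, SE 0.51, edgeR adjusted p = 0.00491), and its peak had 1.59 and 1.18 CPM in BL6, against 0.112 and 0 CPM in DBA. H2-Q2, a class I gene of the major histocompatibility complex, had 1.75 and 1.37 CPM in BL6, against 0.156 and 0.158 CPM in DBA (3.26, SE 0.39, adjusted p = 0.00441). It had a member at each end, with ratios of 8.31 and 13.3. Rec8, a cohesin subunit of meiosis, had 5.64 and 6.94 CPM in BL6, against 0.529 and 1.22 CPM in DBA (2.73, SE 0.38, adjusted p = 0.00855). Both BL6 libraries lay above both DBA libraries for each of these genes. Mndal and H2-Q2 belong to families with near-identical copies, and how reads were shared among copies is not given in the sources used here.

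4930481A15Rik RNA was at 5.04 and 6.03 CPM in BL6, against 0.716 and 0.691 CPM in DBA (log2 fold change 2.92, SE 0.26, edgeR adjusted p = 0.00120). The gene with the related promoter, AA388235, had 32 and 24 RNA counts in BL6, against 0 and 0 in DBA. It was not tested, since 10 counts were required in each strain. Rnaset2b, a ribonuclease gene with the near copy Rnaset2a, had 6.29 and 7.59 CPM in BL6, against 3.11 and 2.31 CPM in DBA (1.31, SE 0.24, adjusted p = 0.0257). Rgsl1, a gene related to regulators of G protein signalling, had 5.46 and 4.40 CPM in BL6, against 2.27 and 2.03 CPM in DBA (1.16, SE 0.24, adjusted p = 0.0432). Groups did not overlap in any of these. Without DBA library 3 the number of calls fell to 3, and Mndal (adjusted p = 0.0624), H2-Q2 (0.0609), Rnaset2b (0.198) and Rgsl1 (0.287) were among those lost.

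In 4932438H23Rik, RNA was called over all nuclei at 9.03 and 11.9 CPM in BL6, against 3.70 and 2.98 CPM in DBA (log2 fold change 1.60, SE 0.22, edgeR adjusted p = 0.00862). In non-neuronal nuclei it had 33.3 and 33.4 CPM in BL6, against 5.02 and 3.71 CPM in DBA, and was called. In excitatory and inhibitory neurons its log2 fold changes were 0.16 and 0.06 (adjusted p = 0.845 and 0.957). Its peak was at 16.2 CPM in BL6 excitatory neurons, 18.7 CPM in BL6 inhibitory neurons and 6.79 CPM in BL6 non-neuronal nuclei. Whether the RNA difference differed between classes was not tested.

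Within classes more genes at member ends passed in both directions. In excitatory neurons 12 of 33 genes were higher in BL6 (background 6.14%) and 3 lower (3.53%), in inhibitory neurons 10 of 30 were higher (5.38%) and 1 lower (3.24%), and in non-neuronal nuclei 10 of 32 were higher (4.96%) and 3 lower (3.29%). Without DBA library 3 the higher calls numbered 7, 5 and 6 in these classes, and without DBA library 2 those in non-neuronal nuclei numbered 4. Crym, which encodes the thyroid hormone-binding protein mu-crystallin, had 26.6 and 40.7 CPM in BL6 excitatory neurons, against 17.2 and 11.7 CPM in DBA excitatory neurons (1.21, SE 0.26, edgeR adjusted p = 0.0255). The BL6 libraries were higher without overlap. This gene and those of the next 2 paragraphs, called in 1 or more classes but not over all nuclei, were chosen after their values were seen.

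Tekt1, which encodes a tektin of ciliary microtubules, had 5.24 and 4.56 CPM in BL6 excitatory neurons, against 2.13 and 1.49 CPM in DBA excitatory neurons (1.48, SE 0.29, edgeR adjusted p = 0.00379), and it was also called in inhibitory neurons (1.82). Its peak had 6.27 and 6.20 CPM in BL6, against 0.510 and 0.616 CPM in DBA. Mcm6, a subunit of the replicative DNA helicase, was called in excitatory (1.46) and inhibitory neurons (1.44). Myoc RNA had 3.70 and 7.25 CPM in BL6 non-neuronal nuclei, against 0.272 and 0.413 CPM in DBA non-neuronal nuclei (3.83, SE 0.58, adjusted p = 0.00184). Its peak, as given above, had no non-neuronal count in any library.

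Lower in BL6 beside a more open peak was Atp2c1, which encodes a calcium and manganese pump of the Golgi. It had 159 and 167 CPM in BL6 excitatory neurons, against 223 and 221 CPM in DBA (-0.47, SE 0.10, edgeR adjusted p = 0.00521). Its peak had 3.89 and 3.37 CPM in BL6, against 0.311 and 0.451 CPM in DBA. Rhobtb3 had 68.1 and 66.9 CPM in BL6 non-neuronal nuclei, against 99.8 and 106 CPM in DBA non-neuronal nuclei (-0.72, SE 0.11, adjusted p = 0.00183). Ring1 went in opposite directions, at 73.8 and 106 CPM in BL6 excitatory neurons against 58.3 and 55.8 CPM in DBA (0.63, adjusted p = 0.0309), and at 59.0 and 70.7 CPM in BL6 non-neuronal nuclei against 92.2 and 97.7 CPM in DBA (-0.66, adjusted p = 0.00666). In non-neuronal nuclei the summed level of 4 oligodendrocyte markers was 3088 and 2366 CPM in BL6, against 2005 and 1812 CPM in DBA. That of 3 endothelial markers was 57.5 and 60.2 CPM in BL6, against 23.9 and 9.63 CPM in DBA. Microglial markers summed to 491 and 400 CPM in BL6, against 364 and 313 CPM in DBA. Astrocyte markers went the other way, at 1070 and 1351 CPM in BL6, against 1424 and 1441 CPM in DBA. Oligodendrocyte precursor markers overlapped, at 424 and 489 CPM in BL6, against 471 and 483 CPM in DBA. The same 3 endothelial markers summed to 47.9 and 42.1 CPM in BL6 excitatory neurons, against 3.58 and 2.98 CPM in DBA excitatory neurons, and to 42.0 and 37.4 CPM in BL6 inhibitory neurons, against 1.61 and 2.86 CPM in DBA inhibitory neurons. The 4 oligodendrocyte markers summed to 113 and 110 CPM in BL6 excitatory neurons, against 82.5 and 79.9 CPM in DBA excitatory neurons. In inhibitory neurons they summed to 103 and 93.8 CPM in BL6, against 57.8 and 58.7 CPM in DBA. In neither neuronal class was a non-neuronal marker set lower in BL6 without overlap. None of these markers was at 0 in a class when the 4 libraries were summed, and single libraries were not checked for zeros. The part of such differences in the RNA values of the classes was not tested.

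Genes with a member inside but none at an end were counted apart, and their difference from the genes with a member at an end was not tested. Of 178 tested over all nuclei, 22 (12.4%) were higher in BL6, compared with 3.18% of all genes tested. Lower in BL6 were 3 (1.69%), compared with 1.71% of all genes. Their median log2 fold change was 0.05, and that of all genes was 0.01. The genes named here were chosen after their values were seen. Zfp566, a zinc finger gene, had 17.2 and 17.1 CPM in BL6, against 3.92 and 2.82 CPM in DBA (2.31, SE 0.20, edgeR adjusted p = 0.00118), and Lyn, a Src-family kinase gene, had 109 and 119 CPM in BL6, against 60.5 and 56.1 CPM in DBA (0.92, SE 0.10, adjusted p = 0.00262). Both were higher in BL6 without overlap.

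The reverse was seen in Stab2, a scavenger receptor gene, with 4.51 and 6.06 CPM in BL6, against 199 and 223 CPM in DBA (-5.39, SE 0.16, edgeR adjusted p = 1.69e-05). The member inside it, chr10:86969340-86969665, had 1.63 and 1.55 CPM in BL6, against 0.298 and 0.496 CPM in DBA. Fhit, which encodes a diadenosine triphosphate hydrolase, had 145 and 167 CPM in BL6, against 295 and 280 CPM in DBA (-0.93, SE 0.10, adjusted p = 0.00356), with a member at 1.50 and 1.48 CPM in BL6, against 0.298 and 0.331 CPM in DBA. In these genes RNA and the peak inside went opposite ways.

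Members were also counted in or at the genes of fixed lists. Of 603 eligible peaks in or at 18 genes of voltage-gated potassium channels, 1 was a member (0.166%), and of 1211 at 16 genes of synaptic adhesion, 2 were members (0.165%). The background was 0.303% over all eligible peaks, which include those between genes. At that share, lists of this size would hold few members or none, so nothing is read from the counts of any list. The member in Kcnq5, an M-current channel subunit, had 2.86 and 3.13 CPM in BL6 against 0.622 and 0.541 CPM in DBA. That in Cntnap5b, of the contactin-associated family, had 2.91 and 3.30 CPM in BL6 against 0.137 and 0.165 CPM in DBA. The member in Tenm4, a teneurin, had 2.75 and 2.54 CPM in BL6 against 0.746 and 0.661 CPM in DBA. No member was found in or at the genes of 8 other lists. These were known strain variants (161 eligible peaks), GABA-A receptor subunits (255), ionotropic glutamate receptor subunits (633), metabotropic glutamate receptors (267), axon guidance (1032), cadherins (685), neuropeptides and their receptors (143) and myelin (52).

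The ATAC libraries held 66535381 to 86927891 counts from 3694 to 6943 nuclei, 97.0% to 98.2% of them neurons. The RNA libraries held 30693629 to 66304405 counts from 2867 to 8079 nuclei. The names of the neuronal classes went with their markers in the ATAC sums, in that peaks at Gad1, Gad2, Slc32a1 and Dlx6os1 had higher summed levels in inhibitory neurons, and those at Slc17a7, Slc17a6 and Neurod6 in excitatory neurons. In the non-neuronal sums these neuronal markers were also open, at 7.30 CPM or more, and the part of this in the non-neuronal values was not tested.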

How the data were processed

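The authors deposited counts per ATAC peak and counts per gene, each already a sum over the nuclei of 1 of 22 cell types in 1 library, together with a count of those nuclei. Cell Ranger ATAC 2.0.0, Cell Ranger 6.0.2, Seurat 4.0.5 and the build mm10 appear in the submitters' processing notes. The peak caller, filters, doublet removal, the gene models per strain, strand use, and whether fragments or insertion sites were counted are not given in the sources used here. Of 24 samples, 8 were used; the 16 methylation libraries were not analysed here.

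CPM were computed per library over all types. Peak coordinates are those of the authors' table. Genes, promoter windows and sequences came from RefSeq on GRCm38.p6; the gene table gave no strand, so either end of a gene counted, within 2 kb. Of 33073 genes, 21931 had an RNA row. Strains were compared in RNA, over all nuclei and per class, with the quasi-likelihood test of edgeR 4.0.16 (R 4.3.3). Genes with fewer than 10 counts over all nuclei in either strain were left out first. TMM factors scaled the libraries and filterByExpr (minimum count 10) removed low genes. Peaks were tested between classes with the library as a block. Adjusted p-values (Benjamini-Hochberg, threshold 0.05) run over all features. The scripts were tested on simulated data. Promoter windows were aligned with Biopython 1.88. The tests were repeated with DESeq2 1.42.0, with RLE factors or plain totals, without the filter, with every gene of the table, without each library in turn, with the library number as a block, and with other windows, folds and levels for the rule. Crossed library numbers were added after the data were seen, as was a count of members from totals of chromosomes 1 to 19 (531, which held all 526). Same-numbered RNA libraries did not deviate together (correlation of -0.39 over all nuclei).

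The members, gene lists and tests were chosen with earlier results of these data known. Named members were the 8 with the highest BL6 level, the 8 with the largest ratio, 5 on each side of the threshold, up to 3 called members per class contrast and direction, and the 4 longest runs. Named genes were those called over all nuclei at a member end and those of the fixed lists; the rule passed over provisional symbols, and the 2 called ones are named because their peaks were among the 8 strongest. Samples of a strain are pools of about 2 animals, so p-values between strains rest on the spread between these pools. Those between classes rest on the spread left after differences between libraries are taken out.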

Additional observations from a re-analysis of the deposited data

Results flagged for a closer look

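In 6 genes with a member at an end, the RNA of all libraries of one class moved one way between the strains and that of all libraries of another class moved the opposite way. How many of all genes did the same was not computed, so nothing is read from this count. The differences between classes were not tested. Values are log2 fold changes of BL6 over DBA.

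Ring1 had 0.63 in excitatory neurons, 0.43 in inhibitory neurons and -0.66 in non-neuronal nuclei. Rhobtb3 had 0.24 in excitatory neurons, 0.37 in inhibitory neurons and -0.72 in non-neuronal nuclei. Golga5, a golgin gene, had -0.25 in excitatory neurons, -0.13 in inhibitory neurons and 0.079 in non-neuronal nuclei. The provisional genes 4930500A05Rik and 9530068E07Rik had -0.38 and -0.25 in excitatory neurons, and 1.49 and 0.26 in non-neuronal nuclei. Gm13710 had -0.26 in excitatory neurons, -0.53 in inhibitory neurons and 0.97 in non-neuronal nuclei.

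On the sex chromosomes, which the rule leaves out, 9 of 3066 eligible peaks passed the same ratio in BL6, and 14 passed it in DBA.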

How the results depend on the processing

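Counts below are calls among genes with a member at an end, higher in BL6 first and lower second, where they differ by over 1.5 times from the reported 8 and 0 (all nuclei), 12 and 3 (excitatory), 10 and 1 (inhibitory) and 10 and 3 (non-neuronal). DESeq2 gave 14 higher over all nuclei, 1 lower in excitatory neurons, and 5 higher and 0 lower in inhibitory neurons. With every gene of the table kept, 17 were higher and 3 lower over all nuclei, and 3 lower in inhibitory neurons. Shares over all genes or peaks were computed for the reported fits alone, so counts from other fits have no background here. A window of 1 kb gave 1 lower in excitatory and 0 in inhibitory neurons. A window of 10 kb, which takes in more genes, gave 26 and 5, 36 and 11, 34 and 9, and 31 and 8. Members at 5-fold (162 peaks) gave 5 higher over all nuclei, 6 and 0 both in inhibitory neurons and in non-neuronal nuclei.

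Leaving out 1 library each gave 3 to 8 higher and 0 to 1 lower over all nuclei, 7 to 11 and 1 to 2 in excitatory neurons, 5 to 9 and 0 in inhibitory neurons, and 4 to 9 and 1 to 3 in non-neuronal nuclei. The lowest counts of higher calls came without DBA library 3, and in non-neuronal nuclei without DBA library 2 (4, against 6 without DBA library 3). The 1 lower call over all nuclei came without BL6 library 2, which also left 6 higher calls in inhibitory neurons. Lower calls in excitatory neurons stood at 1 without BL6 library 2, BL6 library 3 or DBA library 2, and in non-neuronal nuclei at 1 without either DBA library. Rgsl1 in non-neuronal nuclei, at -0.48, ran between -1.59 and 0.083 with 1 library left out, and turned above 0 without BL6 library 3 (0.083) and without DBA library 2 (0.081). With the library number as a replicate block 5 genes were higher over all nuclei; the numbers are no pairing that the labels give. With the numbers crossed between strains, tried after the data were seen, 15 were higher and 4 lower over all nuclei, and 0 lower in inhibitory neurons.

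The class calls of the members depended on the fit. Without the replicate block of the library, the reported 196 (excitatory), 87 (inhibitory), 18 (non-neuronal higher) and 50 (non-neuronal lower) became 33, 1, 0 and 0. DESeq2 gave 120, 33 and, for non-neuronal lower, 17. Leaving out 1 library each gave 126 to 202, 50 to 88, 9 to 16 and 7 to 49, with the lowest counts without BL6 library 3, without BL6 library 2, without BL6 library 3 and without BL6 library 2, in that order; non-neuronal lower calls numbered 18 without BL6 library 3 and 32 without DBA library 3. BL6 libraries alone gave 11 non-neuronal higher. Members at 5-fold gave 36, 31 and, for non-neuronal lower, 18, and members at 2 CPM (300 peaks) gave 94 excitatory. Apart from the fewer samples, genes or peaks named, the cause was not tested.

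Of 360 repeats of 34 values of single genes and peaks, 323 kept direction and side of the threshold, 35 lost the call and 2 reversed. All else named in the methods left the counts within 1.5 times. Non-neuronal ATAC values rest on 1.69% to 2.41% of the ATAC counts.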
